A study of Mus musculus with 18 samples.

Results

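The insulin-like growth factor (IGF) genes followed here were 10 of the 52636 genes in the count table: the ligand gene *Igf2* and its imprinted neighbor *H19*, the receptors *Igf1r* and *Igf2r*, the binding proteins *Igfbp2*, *Igfbp3*, *Igfbp4* and *Igfbp5*, and the pappalysins *Pappa* and *Pappa2*. Each was found by its symbol, and each symbol had 1 row. The 10 genes were selected on their measured levels across all 6 groups, so their differences between groups are given as a description without a test. All 10 passed the filter on low counts in each of the 6 comparisons.

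RPE RNA of 18 C57BL/6 mice was profiled at postnatal day 14, with 3 libraries in each group and both eyes of 1 mouse in each library. Newborn pups received subretinal AAV8 vectors whose Best1 promoter drives expression in the RPE: GFP, nSREBP2 (the nuclear form of the sterol regulator SREBP2), a ctrl sh hairpin that the labels name by its target LacZ, or the hairpins *Lrp2* sh1 or *Lrp2* sh2 against the endocytic receptor gene *Lrp2*. A group of uninjected mice had no vector. RPE cells were released with papain from eyecups freed of retina and optic nerve, so sclera and choroid cells could be carried over. Depth was 8921885 to 13696934 counts per library. Levels are CPM, counts scaled to a common library size with TMM factors over all libraries, and levels of different genes are compared only per kb of exon. In such bulk samples, fewer cells of a type and less RNA per cell cannot be told apart.

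The manipulated genes and the markers were checked first, and a gene is said to be called where its adjusted *P* (edgeR) was under 0.05 and its absolute log2FC above 1. *Lrp2* was at 36.9 ± 6.65 CPM (SD, n = 3) under *Lrp2* sh1 and 38.7 ± 4.73 CPM under *Lrp2* sh2, against 118 ± 42.8 CPM under ctrl sh, and *Srebf2* was at 217 ± 15.9 CPM under nSREBP2 against 101 ± 15.9 CPM under GFP. All 12 RPE markers were detected in every group. The summed level of 14 fibroblast and sclera markers was 75500 to 91400 CPM under nSREBP2 and 20300 to 57400 CPM in the other libraries. By 4 Y-linked genes, the 3 nSREBP2 mice, *Lrp2* sh2 replicates 2 and 3 and uninjected replicate 3 were male and the other 12 female. All 3 GFP mice were female, so in nSREBP2 versus GFP sex and vector cannot be told apart. A fit with sex as a term draws its sex effect from the uninjected and *Lrp2* sh2 groups, which alone held both sexes. It takes this effect as equal in all groups, and the nSREBP2 values given with this term rest on that assumption.

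IGF2 is a secreted growth factor of fetal and perinatal tissue. It signals through the receptor tyrosine kinase IGF1R, while IGF2R carries it to the lysosome for breakdown. IGF binding proteins hold the ligands in the extracellular fluid, and pappalysins are metalloproteases that cleave some of these proteins and free the ligand, PAPP-A acting on IGFBP4 and IGFBP5 and PAPP-A2 on IGFBP3 and IGFBP5. *Igf2* is expressed from the paternal chromosome and *H19*, a long non-coding RNA, from the maternal chromosome, and the pair share an imprinting control region and enhancers.

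In GRCm38 the pair lie on the minus strand of chromosome 7, *H19* at chr7:142575529-142578143 and *Igf2* at chr7:142650766-142666816, with 72.6 kb between them. *Igfbp2* (chr1:72824503-72852474, plus strand) and *Igfbp5* (chr1:72857932-72874884, minus strand) lie 5.46 kb apart. RefSeq lists 4 start sites for *Igf2*, and the deposited counts pool the transcripts of all of them. Their sequences are shown because *Igf2* had the largest difference of the 10 genes. Each window runs from 250 bases before the start to 50 after it and is written 5′ to 3′ on the gene's strand, in RefSeq's table for GRCm38.p6. Capitals mark matches, on either strand, to 4 motifs searched: the E-box CACGTG and the sterol element form TCACNCCAC, both bound by SREBP factors, the GC box GGGCGG and the TATA box TATAAA.
*Igf2*, chr7:142666767-142667066: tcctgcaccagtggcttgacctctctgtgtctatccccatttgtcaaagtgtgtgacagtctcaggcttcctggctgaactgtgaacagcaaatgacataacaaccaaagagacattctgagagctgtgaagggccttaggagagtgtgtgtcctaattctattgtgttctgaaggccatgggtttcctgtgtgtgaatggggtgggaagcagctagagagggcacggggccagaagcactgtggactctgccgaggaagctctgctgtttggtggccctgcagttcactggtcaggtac
*Igf2*, chr7:142661222-142661521: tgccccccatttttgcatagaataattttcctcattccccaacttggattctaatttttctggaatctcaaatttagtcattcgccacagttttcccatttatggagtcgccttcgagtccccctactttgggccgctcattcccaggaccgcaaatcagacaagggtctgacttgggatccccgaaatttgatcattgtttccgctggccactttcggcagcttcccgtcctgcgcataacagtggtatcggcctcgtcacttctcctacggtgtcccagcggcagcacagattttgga
*Igf2*, chr7:142658755-142659054: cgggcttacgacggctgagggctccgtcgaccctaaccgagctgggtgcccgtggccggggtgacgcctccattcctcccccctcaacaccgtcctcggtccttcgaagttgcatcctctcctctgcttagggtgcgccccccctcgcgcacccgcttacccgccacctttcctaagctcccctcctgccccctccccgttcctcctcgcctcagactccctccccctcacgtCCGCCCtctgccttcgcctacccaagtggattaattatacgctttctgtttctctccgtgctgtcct
*Igf2*, chr7:142657447-142657746: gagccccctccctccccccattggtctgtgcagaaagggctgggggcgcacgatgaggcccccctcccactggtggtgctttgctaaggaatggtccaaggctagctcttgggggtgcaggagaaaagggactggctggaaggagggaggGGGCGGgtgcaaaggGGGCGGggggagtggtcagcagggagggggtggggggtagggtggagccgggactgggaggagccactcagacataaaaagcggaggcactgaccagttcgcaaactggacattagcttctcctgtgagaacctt

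The third *Igf2* window held 1 GC box and the fourth held 2, and the first and second held none of the motifs. Among 32851 mouse promoter windows of 300 bases, 35.7% held GGGCGG, 13.6% TATAAA, 7.15% CACGTG and 1.24% TCACNCCAC. The other windows shown are those of the genes with the widest spread between groups after *Igf2*, *Igfbp2* and *Pappa2*, and of *Igf2r* and *Igfbp4*, whose groups were the most clearly ordered.
*Igfbp2*, chr1:72824230-72824529, plus strand: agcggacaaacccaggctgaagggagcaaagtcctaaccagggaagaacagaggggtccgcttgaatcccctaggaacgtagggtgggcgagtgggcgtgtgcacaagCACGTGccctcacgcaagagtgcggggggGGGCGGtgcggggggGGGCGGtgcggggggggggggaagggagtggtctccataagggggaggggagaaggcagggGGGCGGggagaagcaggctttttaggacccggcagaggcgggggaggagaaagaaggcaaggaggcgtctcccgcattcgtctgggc
*Pappa2*, chr1:158958126-158958425, minus strand: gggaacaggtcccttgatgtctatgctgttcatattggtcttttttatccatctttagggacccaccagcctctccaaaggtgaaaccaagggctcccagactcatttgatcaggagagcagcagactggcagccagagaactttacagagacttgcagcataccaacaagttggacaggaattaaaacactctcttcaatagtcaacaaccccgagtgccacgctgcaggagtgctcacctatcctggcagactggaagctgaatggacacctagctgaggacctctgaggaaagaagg
*Igf2r*, chr17:12769657-12769956, minus strand: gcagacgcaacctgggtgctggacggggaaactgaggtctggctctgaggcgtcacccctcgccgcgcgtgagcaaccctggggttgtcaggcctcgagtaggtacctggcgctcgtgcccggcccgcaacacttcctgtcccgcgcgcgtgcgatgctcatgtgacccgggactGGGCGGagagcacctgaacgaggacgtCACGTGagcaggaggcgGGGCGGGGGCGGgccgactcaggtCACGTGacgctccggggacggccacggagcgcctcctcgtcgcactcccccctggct
*Igfbp4*, chr11:99040994-99041293, plus strand: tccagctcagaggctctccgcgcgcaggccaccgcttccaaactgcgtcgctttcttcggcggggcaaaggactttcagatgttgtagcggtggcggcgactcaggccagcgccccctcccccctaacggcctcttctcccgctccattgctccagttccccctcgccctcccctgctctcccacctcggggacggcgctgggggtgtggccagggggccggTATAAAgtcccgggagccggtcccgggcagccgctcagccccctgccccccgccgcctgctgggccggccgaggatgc

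CACGTG stood 1 time in the *Igfbp2* window shown and 2 times in that of *Igf2r*, each with 3 GC boxes. RefSeq lists a second *Igfbp2* window, at chr1:72825137-72825436 and not printed, which held none of the 4 motifs. The *Igfbp4* window held TATAAA, and the *Pappa2* window held none of the 4 motifs. None of the 12 windows of 8 members in the table held TCACNCCAC. *H19* and *Pappa* had no entry. A match of letters is a description of the window and says nothing about binding.

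Per length, *Igfbp5* was the most abundant of the 10 transcripts in 5 groups, at 946 to 1313 CPM per kb. *Igfbp4* followed in the control groups and under *Lrp2* sh1, at 214 to 307 CPM per kb, while under nSREBP2 *H19* at 185 CPM per kb stood above *Igfbp4* at 152. *Pappa* was the lowest in every group, at 0.272 to 0.711 CPM per kb. *Igf2* stood at 70.4 to 139 CPM per kb in 5 groups and at 1208 ± 297 CPM per kb under *Lrp2* sh2, where its mean passed the 1076 ± 69.8 CPM per kb of *Igfbp5*. Both receptors were lower, *Igf1r* at 22.7 to 26.6 and *Igf2r* at 31.6 to 55.8 CPM per kb.

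**Figure D1:**
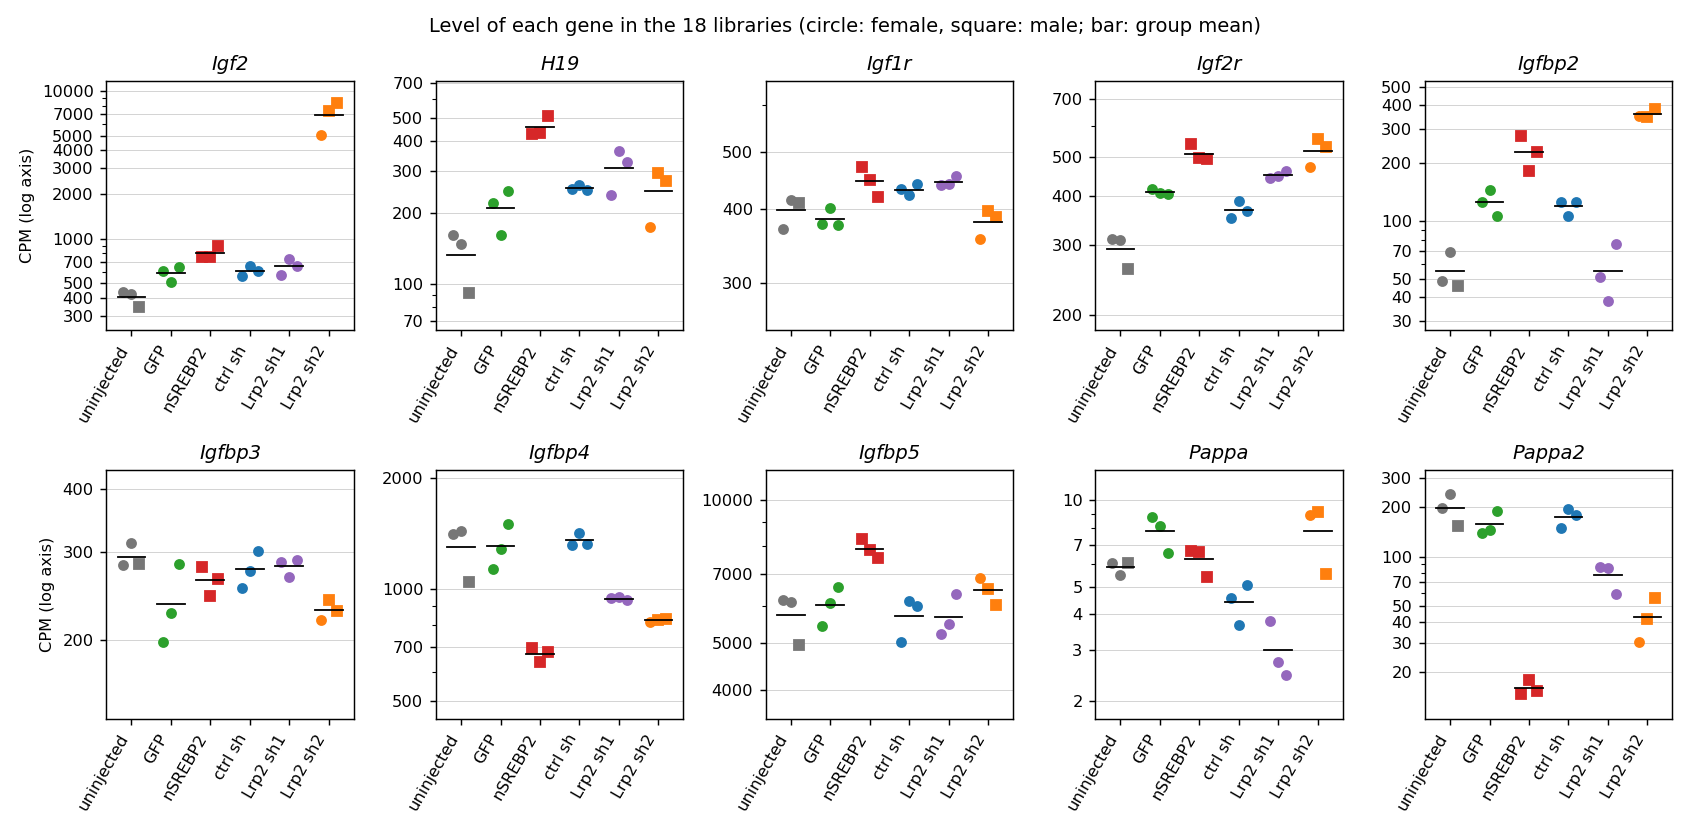
Level of each of the 10 genes in CPM (vertical axis, log scale) in the 18 libraries, by group (horizontal axis). Each point is 1 library (circle, female; square, male) and each bar the mean of 3. *Igf2* stands apart under *Lrp2* sh2 at 5050 to 8371 CPM, and *Pappa2* is lowest under nSREBP2 at 14.8 to 17.95 CPM.

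The ligand *Igf2* was higher under *Lrp2* sh2 than in every other group, at a mean of 6916 ± 1699 CPM (SD, n = 3) against group means of 403 to 797 CPM. Its level was 5050, 7327 and 8371 CPM in the *Lrp2* sh2 libraries, against 561, 658 and 605 CPM under ctrl sh and 566, 731 and 658 CPM under *Lrp2* sh1. The other libraries held 343 to 889 CPM. The groups under the hairpins ordered as ctrl sh and *Lrp2* sh1, which overlapped, and then *Lrp2* sh2, which overlapped neither. *Igf2* took 0.516 to 0.823% of all counts in the *Lrp2* sh2 libraries and 0.0357 to 0.0850% in the other 15. Per kb of exon it ranked 18, 11 and 10 among all genes in the former and 119 to 395 in the latter.

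The log2FC of *Igf2* for *Lrp2* sh2 versus ctrl sh was 3.52 ± 0.18 (SE), or 11.5-fold, and for *Lrp2* sh2 versus *Lrp2* sh1 it was 3.41 ± 0.18. For *Lrp2* sh1 versus ctrl sh it was 0.10 ± 0.10. The level of *Lrp2* itself overlapped between the hairpins, at 29.7 to 42.8 and 34.6 to 43.9 CPM. With *Lrp2* sh2 versus ctrl sh, leaving out 1 library at a time gave 3.36 to 3.70. The female *Lrp2* sh2 library, replicate 1, held 5050 CPM, above each of the 3 ctrl sh libraries, which were also female, and with sex as a term over all 18 libraries the log2FC was 3.39 ± 0.19.

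Markers of other cell types differed as well. Under *Lrp2* sh2, 10 of the 12 rod markers rose past the limits against ctrl sh, with summed levels of 437, 83.2 and 114 CPM in replicates 1, 2 and 3 and 44.2 to 65.8 CPM under ctrl sh. The *Igf2* levels of the same replicates 1, 2 and 3 were 5050, 7327 and 8371 CPM. Of 12 RPE markers, 5 were called lower and 2 higher, with summed levels of 3100 to 3360 CPM against 4520 to 6620 CPM. The 14 fibroblast and sclera markers summed to 45900 to 54300 CPM against 36000 to 50500 CPM, with no marker called. The part of rod and RPE markers in the *Igf2* level was not tested. Nor was their part in the *Lrp2* sh2 differences of the other members and of the further genes given below.

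nSREBP2 and the vectors themselves went with much smaller *Igf2* differences. Under nSREBP2 the libraries held 752, 749 and 889 CPM and under GFP 607, 514 and 641 CPM, so that the groups did not overlap, with a log2FC of 0.44 ± 0.10. The uninjected libraries held 439, 426 and 343 CPM, below all injected ones, and the log2FC was 0.53 ± 0.13 for GFP versus uninjected and 0.57 ± 0.12 for ctrl sh versus uninjected. With sex as a term the nSREBP2 value was 0.27 ± 0.23.

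*H19* differed from *Igf2* in where it was high. It stood at 425, 432 and 508 CPM under nSREBP2 and at 219, 161 and 247 CPM under GFP, a log2FC of 1.12 ± 0.14, and the groups did not overlap. Under *Lrp2* sh2 it stood at 174, 292 and 271 CPM and under ctrl sh at 252, 261 and 249 CPM, which overlapped, with a log2FC of -0.04 ± 0.16. *H19* was lowest in the uninjected libraries, at 160, 147 and 91.6 CPM, and the log2FC of ctrl sh versus uninjected was 0.91 ± 0.18.

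Without GFP replicate 2 the nSREBP2 difference of *H19* was 0.96 ± 0.11, under the log2FC limit of 1. With sex as a term, whose effect comes from other groups, the *H19* difference was 1.11 ± 0.33. In the uninjected group the male library was the lowest of the 3. The summed fibroblast and sclera level moved the same way, 75500 to 91400 CPM under nSREBP2 against 37200 to 47300 CPM under GFP, with 2 of 14 genes called higher. Macrophage markers were also higher, 709 to 767 against 417 to 488 CPM, with 4 of 10 called. Their part in the *H19* and *Igf2* levels was not tested.

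Within a library, the per-length ratio of *Igf2* to *H19* was 1.11 to 1.61 in the uninjected and GFP libraries and 0.865 to 1.08 under ctrl sh and *Lrp2* sh1. It was 0.746 to 0.761 under nSREBP2, below all other libraries. Under *Lrp2* sh2 it was 12.5, 10.8 and 13.3. The ratio of *Igf2* to *Igf2r* was 17.4, 21.5 and 25.7 under *Lrp2* sh2 and 2.05 to 2.92 in the other libraries.

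**Figure D2:**
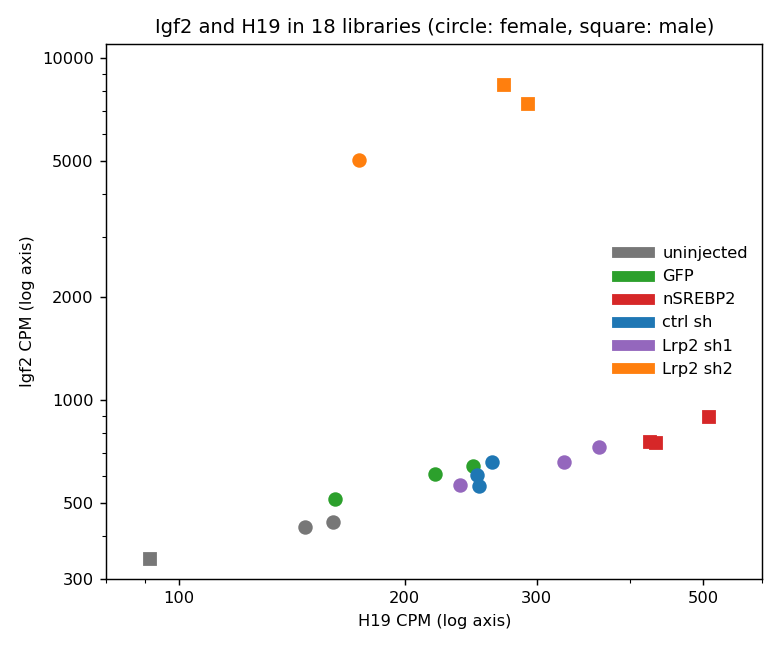
*Igf2* CPM (vertical axis, log scale) against *H19* CPM (horizontal axis, log scale) in the 18 libraries, colored by group (circle, female; square, male). The 3 *Lrp2* sh2 points lie at 5050 to 8371 CPM of *Igf2* with 174 to 292 CPM of *H19*, away from the other 15 points.

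The row of genes around *Igf2* was then read for *Lrp2* sh2 versus ctrl sh. This window of 300 kb to each side was chosen after values were seen, so its values are a description. Of 23 other genes of the window in the table, 10 were tested in this comparison. *Igf2os*, the antisense transcript at *Igf2*, stood at 15.4, 16.4 and 23.4 CPM under *Lrp2* sh2 and at 1.45, 1.25 and 1.77 CPM under ctrl sh, a log2FC of 3.64 ± 0.22. The use of strand in counting is not given in the sources used here, and 98 of the 5723 exon bases of *Igf2* are shared with *Igf2os*, so reads of the pair cannot be told apart with certainty. A larger part, 3596 bases, is shared with *Gm49394* on the same strand as *Igf2*. *Gm49394* has no row in the count table, so its reads cannot be told apart from those of *Igf2* either.

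*Ins2*, an insulin gene 11.8 kb from *Igf2*, had 61, 56 and 104 counts under *Lrp2* sh2 and 17, 4 and 13 under ctrl sh. *Syt8*, a synaptotagmin gene 210 kb away on the side of *H19*, had 14, 11 and 29 counts against 8, 5 and 2, with a log2FC of 1.92 ± 0.53. Between *Syt8* and *Igf2*, the genes *Lsp1*, *Prr33*, *Tnnt3*, *Mrpl23* and *H19* had log2FC values of -0.23 to 0.26. In *Lrp2* sh1 versus ctrl sh none of 8 tested neighbors passed the limits, beside 0.994% of all genes. In nSREBP2 versus GFP *H19* was the only one of 9, beside 6.67%. With so few neighbors nothing is read from these counts.

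**Figure D3:**
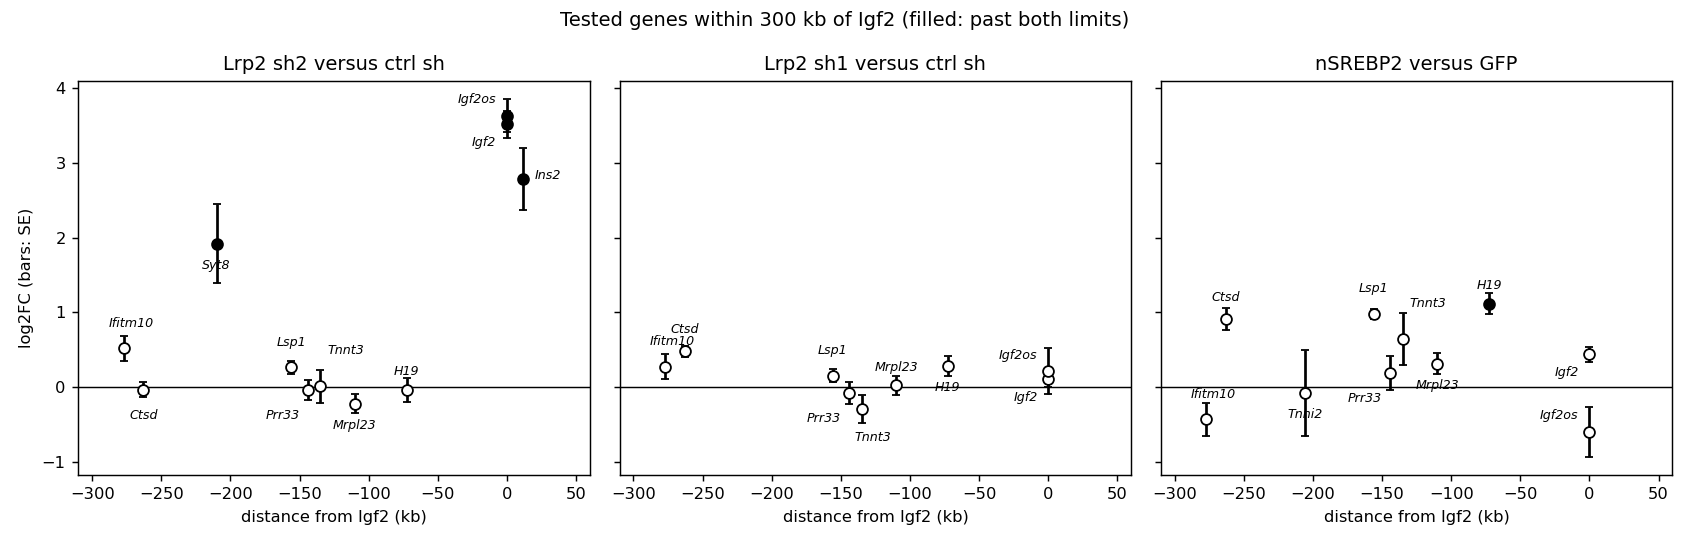
log2FC (vertical axis; bars, SE) of the tested genes within 300 kb of *Igf2* against their distance from *Igf2* in kb (horizontal axis), in 3 comparisons. Filled points passed an adjusted *P* of 0.05 and an absolute log2FC of 1. Under *Lrp2* sh2, *Igf2os* (3.64), *Igf2* (3.52) and *Ins2* (2.78) stand high while *H19* stands at -0.04.

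Of the receptor genes, *Igf1r*, the signaling receptor, differed the less between groups and stayed between 356 and 471 CPM in all 18 libraries. Its lowest group mean was 381 CPM under *Lrp2* sh2, from 356, 397 and 389 CPM, below the 432, 422 and 441 CPM of ctrl sh, with a log2FC of -0.17 ± 0.07. Its highest was 446 CPM under nSREBP2, from 471, 448 and 420 CPM, above the 377.1, 402 and 376.7 CPM of GFP, with a log2FC of 0.21 ± 0.07.

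*Igf2r*, which clears the ligand, was ordered across all groups. It stood at 311, 310 and 262 CPM in the uninjected libraries, 352, 389 and 366 under ctrl sh, 416, 407 and 405 under GFP, and 444, 449 and 461 under *Lrp2* sh1. The 2 highest groups overlapped each other, nSREBP2 at 541, 497 and 494 CPM and *Lrp2* sh2 at 472, 556 and 530 CPM, and every other neighboring pair in this order was without overlap. No difference reached 2-fold. The log2FC was 0.32 ± 0.06 for nSREBP2 versus GFP, 0.29 ± 0.06 for *Lrp2* sh1 and 0.51 ± 0.08 for *Lrp2* sh2 versus ctrl sh, and the hairpin values share the ctrl sh libraries.

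*Igfbp2* was the binding protein gene with the widest spread, and the hairpins stood on opposite sides of their control. It was at 352, 350 and 383 CPM under *Lrp2* sh2, 126, 106 and 125 CPM under ctrl sh, and 51.0, 38.4 and 75.9 CPM under *Lrp2* sh1. All 3 *Lrp2* sh2 libraries were above and all 3 *Lrp2* sh1 libraries below the ctrl sh libraries. The log2FC was 1.61 ± 0.08 for *Lrp2* sh2 and -1.11 ± 0.20 for *Lrp2* sh1 versus ctrl sh, and 2.72 ± 0.19 for *Lrp2* sh2 versus *Lrp2* sh1.

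The uninjected libraries held 48.9, 69.3 and 45.7 CPM of *Igfbp2*, which overlapped with *Lrp2* sh1, and *Lrp2* sh1 versus uninjected gave -0.003 ± 0.23. Both control vectors stood above uninjected, GFP at 125, 144 and 106 CPM with a log2FC of 1.17 ± 0.16 and ctrl sh with 1.10 ± 0.15. In GFP versus uninjected, 6 of 12 RPE markers were called lower, with summed levels of 3320 to 3480 CPM against 4340 to 8990 CPM and a median log2FC of -1.56. In ctrl sh versus uninjected no RPE marker was called, with a median log2FC of -0.59. The fibroblast and sclera level was 37200 to 47300 CPM under GFP and 36000 to 50500 CPM under ctrl sh, above the 20300 to 32800 CPM of uninjected, with no marker called in either comparison. The part of these markers in the differences from uninjected was not tested.

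nSREBP2, at 276, 182 and 228 CPM, stood above GFP with a log2FC of 0.87 ± 0.15, or 1.002 ± 0.13 without nSREBP2 replicate 2. The *Lrp2* sh1 difference missed the adjusted *P* limit without *Lrp2* sh1 replicate 1 (-1.06 ± 0.23) and the log2FC limit without replicate 2 (-0.91 ± 0.16). The difference of GFP from uninjected missed the adjusted *P* limit without GFP replicate 2 (1.07 ± 0.17). That of ctrl sh missed the log2FC limit without uninjected replicate 3 (0.996 ± 0.15).

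*Igfbp4* was lower under nSREBP2 and both *Lrp2* hairpins than in the control groups. Under nSREBP2 it stood at 697, 639 and 677 CPM, against 1136, 1286 and 1502 CPM under GFP, with a log2FC of -0.97 ± 0.10. *Lrp2* sh1 held 945, 954 and 935 CPM, *Lrp2* sh2 819, 828 and 830 CPM, and ctrl sh 1319, 1416 and 1329 CPM. None of these pairs of groups overlapped. The 12 endothelium markers summed to 2420 to 2680 CPM under nSREBP2 against 3010 to 3850 CPM under GFP. They summed to 2910 to 3180 CPM under *Lrp2* sh1 and 2200 to 2400 CPM under *Lrp2* sh2, against 3190 to 3390 CPM under ctrl sh. The 10 pericyte and smooth muscle markers were also lower in sum in each of these groups. Of both lists, 1 endothelium marker was called lower, under *Lrp2* sh2. The part of these markers in the *Igfbp4* level was not tested.

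The hairpin log2FC values of *Igfbp4* were -0.52 ± 0.06 for *Lrp2* sh1 and -0.70 ± 0.07 for *Lrp2* sh2, with shared ctrl sh libraries. The 3 control groups overlapped one another, with uninjected at 1411, 1439 and 1048 CPM. No *Igfbp4* difference passed the log2FC limit of 1, except that of nSREBP2 without GFP replicate 1, at -1.07 ± 0.09. The lowest uninjected library was the male one, and with sex as a term the nSREBP2 value was -0.76 ± 0.14 and the *Lrp2* sh2 value -0.57 ± 0.12.

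*Igfbp5*, the most abundant binding protein transcript, stood at 8256, 7849 and 7560 CPM under nSREBP2, above the other 15 libraries, which held 4956 to 6858 CPM. The log2FC for nSREBP2 versus GFP was 0.39 ± 0.09, or 0.59 ± 0.14 with sex as a term. Its groups overlapped in the other 5 comparisons. *Igfbp3* ranged from a mean of 229 CPM under *Lrp2* sh2 to 293 CPM in uninjected RPE. It stood at 219, 240 and 228 CPM under *Lrp2* sh2, below the 254, 275 and 301 CPM of ctrl sh, with a log2FC of -0.26 ± 0.08.

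Summed per length, the 4 binding protein transcripts reached 1620 to 1771 CPM per kb under nSREBP2 and 1178 to 1588 CPM per kb elsewhere. *Igfbp5* made up 77.6 to 80.3% of that sum under nSREBP2, 65.2 to 70.2% in the 3 control groups, 72.3 to 75.3% under *Lrp2* sh1 and 68.2 to 71.9% under *Lrp2* sh2.

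**Figure D4:**
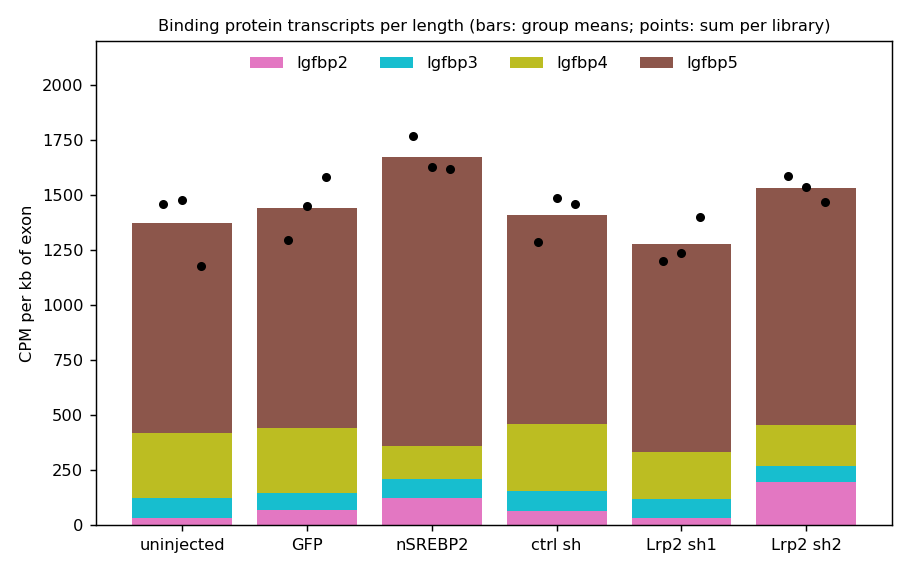
Mean level of the 4 binding protein transcripts in CPM per kb of exon (vertical axis) stacked by group (horizontal axis); each black point is the sum in 1 library. The sum was 1620 to 1771 CPM per kb under nSREBP2, with *Igfbp5* as the largest share in every group.

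*Pappa2* was lower in all 3 manipulated groups than in their controls, and lowest under nSREBP2. It stood at 14.8, 17.95 and 15.4 CPM under nSREBP2 and at 139, 146 and 188 CPM under GFP, a log2FC of -3.30 ± 0.14, or 9.85-fold lower. *Lrp2* sh2 held 30.4, 41.7 and 56.3 CPM, *Lrp2* sh1 86.4, 85.6 and 59.2 CPM, and ctrl sh 150, 194 and 180 CPM. These groups were ordered without overlap as nSREBP2, *Lrp2* sh2, *Lrp2* sh1 and then the controls, which overlapped one another, with uninjected at 197, 241 and 154 CPM.

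In nSREBP2 versus GFP, 5 of 12 RPE markers were called lower and 1 higher, with summed levels of 2870 to 3840 CPM against 3320 to 3480 CPM. Of the rod markers 2 of 12 were called higher, with summed levels of 258 to 364 CPM against 40.7 to 321 CPM. Of 11 markers of other retinal cells 4 were called higher, while their summed level was lower, 602 to 746 CPM against 837 to 1070 CPM. The part of these markers in the *Pappa2* level, and in the nSREBP2 differences of the other members, was not tested.

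Against ctrl sh the *Pappa2* log2FC was -1.18 ± 0.14 for *Lrp2* sh1 and -2.02 ± 0.19 for *Lrp2* sh2. The hairpins differed by -0.85 ± 0.20, which passed the limit without *Lrp2* sh1 replicate 3 (-1.01 ± 0.20) or *Lrp2* sh2 replicate 3 (-1.09 ± 0.18). With sex as a term the value was -3.36 ± 0.32 for nSREBP2 versus GFP and -2.07 ± 0.28 for *Lrp2* sh2 versus ctrl sh. *Pappa2* shares 310 of its 10294 exon bases with 1600012P17Rik on the same strand.

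*Pappa* was low throughout, with 29 to 111 counts per library, so that its values carry more counting error than those of the other 9 genes. It stood at 8.86, 9.14 and 5.53 CPM under *Lrp2* sh2, 4.57, 3.67 and 5.06 under ctrl sh and 3.79, 2.73 and 2.47 under *Lrp2* sh1. *Lrp2* sh2 was above both other groups, with a log2FC of 1.39 ± 0.25 versus *Lrp2* sh1 and 0.84 ± 0.23 versus ctrl sh, or 1.03 ± 0.19 without *Lrp2* sh2 replicate 3. Under nSREBP2 (6.68, 6.62 and 5.39 CPM) and GFP (8.74, 8.17 and 6.53 CPM) it overlapped. The per-length ratio of *Pappa2* to *Pappa* was therefore 2.37 to 3.05 under nSREBP2, 3.67 to 10.9 under *Lrp2* sh2 and 17 to 56.7 in the other libraries.

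**Figure D5:**
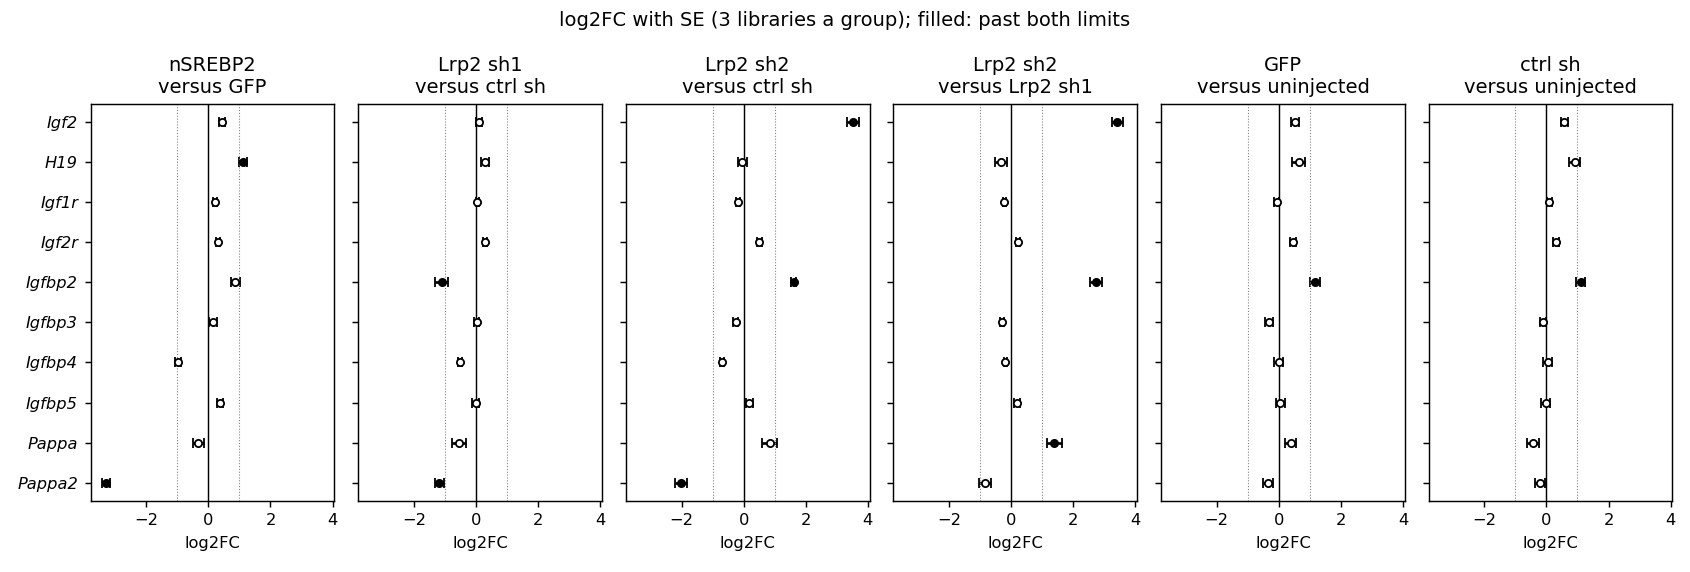
log2FC (horizontal axis) with its SE (bars) of the 10 genes (vertical axis) in the 6 comparisons, each of 3 against 3 libraries. Filled points passed an adjusted *P* of 0.05 and an absolute log2FC of 1, marked by dotted lines. *Igf2* reaches 3.52 for *Lrp2* sh2 and *Pappa2* -3.30 for nSREBP2.

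By the limits of an adjusted *P* under 0.05 and an absolute log2FC above 1, 2 of the 10 genes were past them in nSREBP2 versus GFP (*H19* higher, *Pappa2* lower), where 6.67% of all 17927 genes tested were. In *Lrp2* sh1 versus ctrl sh 2 were (*Igfbp2* and *Pappa2*, both lower), beside 0.994% of all genes. In *Lrp2* sh2 versus ctrl sh 3 were (*Igf2* and *Igfbp2* higher, *Pappa2* lower), beside 4.76%. In *Lrp2* sh2 versus *Lrp2* sh1 3 were (*Igf2*, *Igfbp2* and *Pappa*, all higher), beside 5.13%. *Igfbp2* was the single one of the 10 in GFP versus uninjected, beside 1.41%, and in ctrl sh versus uninjected, beside 2.39%. The genes were selected on these levels, so nothing is read from their counts against the shares. The median log2FC of the 10 genes was 0.26 in nSREBP2 versus GFP, 0.01 for *Lrp2* sh1 and 0.08 for *Lrp2* sh2 versus ctrl sh, beside medians of -0.02, -0.01 and 0.01 over all genes tested.

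A further 63 genes of the IGF pathway, listed by role, were tested in the same fits. In nSREBP2 versus GFP 1 of 55 tested genes was differentially expressed, or 1.82%, beside 6.67% of all genes. *Igf2bp1*, which encodes an IGF2 mRNA-binding protein, fell from 14.0 to 5.27 CPM, a log2FC of -1.41 ± 0.24 (adjusted *P* = 0.0028, edgeR). *Insr*, the insulin receptor gene, fell to a lesser extent, from 307 to 235 CPM (log2FC -0.39 ± 0.08, adjusted *P* = 0.00564, edgeR), within the log2FC limit. *Igf1* stood at 262 and 257 CPM.

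In *Lrp2* sh2 versus ctrl sh 3 of 57 tested genes were differentially expressed, all higher, or 5.26%, near the 4.76% of all genes. *Htra1*, a secreted serine protease that cleaves IGF binding proteins, rose from 147 to 304 CPM (log2FC 1.06 ± 0.07, adjusted *P* = 5.32e-05, edgeR). *Stc2*, whose product stanniocalcin 2 inhibits pappalysins, rose from 2.56 to 6.29 CPM (log2FC 1.31 ± 0.31, adjusted *P* = 0.0166). Its call was lost without *Lrp2* sh2 replicate 2 (adjusted *P* = 0.0698) and with sex as a term (adjusted *P* = 0.0644). *Ins2* rose from 0.881 to 6.09 CPM (log2FC 2.78 ± 0.42). In this comparison *Ins2* passed the low-count filter through the *Lrp2* sh2 libraries, and it lies in the *Igf2* window chosen after values were seen. Its difference, and its place among the 3, are therefore a description. *Igf1* fell by 0.43 ± 0.11 on the log2 scale, from 274 to 202 CPM (adjusted *P* = 0.0265, edgeR), within the log2FC limit.

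In *Lrp2* sh1 versus ctrl sh, edgeR called 0 of 55 genes, as did DESeq2, beside 0.994% of all genes by edgeR. By an adjusted *P* under 0.05 alone 1 of the 55 passed, beside 5.33% of all genes. An unadjusted *P* under 0.05 was found for 18. The share of all genes at that limit was not counted, so nothing is read from the 18. *Htra1* and *Stc2* were higher under *Lrp2* sh2 than under *Lrp2* sh1 by 1.12 ± 0.09 and 1.82 ± 0.27 on the log2 scale (adjusted *P* = 2.47e-05 and 0.00117, edgeR). *Ins2* was higher there too, with 3, 0 and 2 counts under *Lrp2* sh1, at or under the 3 counts that a count of 0 allows. It passed the filter only through the *Lrp2* sh2 libraries, so its difference is a description. The fitted value depends on the prior count and is no bound. Of the binding protein genes outside the 10, *Igfbp7* was higher under *Lrp2* sh2 than under *Lrp2* sh1 (log2FC 0.31 ± 0.07, adjusted *P* = 0.00959) and *Igfbp6* lower (-0.45 ± 0.14, adjusted *P* = 0.0411), both within the log2FC limit, and *Igfals* passed the filter only in *Lrp2* sh2 versus ctrl sh (-0.90 ± 0.60, adjusted *P* = 0.338).

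*Stc1*, which encodes the other stanniocalcin, was the single gene of the 63 past the limits against uninjected RPE, or 1.82% of those tested for GFP and 1.79% for ctrl sh, beside 1.41% and 2.39% of all genes. It stood at 62.9 CPM in uninjected, 25.3 CPM in GFP (log2FC -1.33 ± 0.21, adjusted *P* = 0.0154, edgeR) and 28.6 CPM in ctrl sh libraries (log2FC -1.16 ± 0.12, adjusted *P* = 0.00378). The GFP call was lost without uninjected replicate 2 (adjusted *P* = 0.0513), uninjected replicate 3 (0.0647) or GFP replicate 2 (0.0902). In GFP versus uninjected 6 of 12 RPE markers were called lower, as given for *Igfbp2*, and their part in the *Stc1* level was not tested. No gene of the 22 in the PI3K, AKT and mTOR arm or of the 8 in the MAPK arm passed the limits in any of the 6 comparisons, beside 0.994 to 6.67% of all genes. Both arms were tested in full. By an adjusted *P* under 0.05 alone, nSREBP2 versus GFP had 1 PI3K arm gene higher and 3 lower, beside 21% of all genes. *Lrp2* sh2 versus *Lrp2* sh1 had 2 higher and 4 lower there and 3 MAPK arm genes lower, beside 22.4%. The arms were thus not without smaller differences.

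The genes whose level went most closely with that of *Igf2* were found by Pearson correlation of log2 CPM over the 18 libraries, among 17346 genes with a mean of at least 1 CPM. They were *Arhgef26* (r = 0.978), *Ccnd2*, *Olfr1318* and *Pcdh20* (r = 0.967 each) and *Ctps* (r = 0.959). The *Lrp2* sh2 libraries stood apart, and over the other 15 libraries the same genes had r = 0.89, 0.606, 0.579, 0.542 and 0.814, while *H19* had r = 0.972. Libraries share depth and cell makeup, so these values are a description. For *Igfbp3* the closest were *Fbxo33* (r = 0.828), *Mylip* (r = 0.799), *Pde6d* (r = 0.788), *Gm44530* (r = 0.785) and *Dedd2* (r = 0.783). For *Pappa* they were *Cadm1* (r = 0.861), *Dpf3* (r = 0.857), *Eml5* (r = 0.84), *Rbm33* (r = 0.828) and *Zc3h7a* (r = 0.822).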

How the data were processed

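RNA-seq of 18 mouse RPE libraries was processed, 3 in each of 6 groups taken from the sample labels. The authors depleted rRNA, prepared directional libraries, mapped the reads to GRCm38 and obtained gene counts with STAR at default settings. The deposited values are raw counts per gene. Which annotation and strand setting served for counting is not given in the sources used here, so reads of overlapping genes may be assigned to either. Positions, exon lengths and overlaps came from GENCODE M21 and promoter sequences from RefSeq (GRCm38.p6).

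Every comparison used the counts of its own 6 libraries over all genes in edgeR 4.0.16 under R 4.3.3 (filterByExpr, TMM, glmQLFit, glmQLFTest), with Benjamini-Hochberg adjusted *P*-values. SEs came from the log2FC and F statistic. DESeq2 1.42.0, other size factors and filters, a fit of all libraries, sex as a term, a replicate block, uninjected controls and leaving out each library were the alternatives. No replicate pair differed by less than counting noise. Reads are not independent molecules, so limits from counts cover counting error only. The scripts were tested on simulated data.

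The genes and lists were chosen with earlier results of these data known. Named beyond the 10 were pathway genes that passed the limits, tested ligand, receptor, binding protein and pappalysin regulator genes, and the 5 genes most correlated with *Igf2*, *Igfbp3* and *Pappa*.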

Additional observations from a re-analysis of the deposited data

Results flagged for a closer look

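*Igfbp2* was marked because the 3 *Lrp2* sh2 libraries stood above, and the 3 *Lrp2* sh1 libraries below, every ctrl sh library, with log2FC values of 1.61 and -1.11. The difference between these effects, 2.72 ± 0.19 for *Lrp2* sh2 versus *Lrp2* sh1, is a description only, since the gene was selected on its levels. *Ins2* stood in the same way, at 2.78 for *Lrp2* sh2, and was under the filter for *Lrp2* sh1. *Irs2*, an insulin receptor substrate gene, had 0.31 and -0.31, and *Lrp2* sh2 versus *Lrp2* sh1 gave 0.62 ± 0.06 (adjusted *P* = 5.7e-05, edgeR). *Map2k1*, a kinase gene of the MAPK arm, had -0.15 and 0.18, and the hairpins differed by -0.33 ± 0.06 (adjusted *P* = 0.00247, edgeR). *Irs2* and *Map2k1* were marked by the same rule of opposite sides, which already sets the hairpins apart. Their adjusted *P*-values between the hairpins are therefore a description. *Stc2*, *Htra1* and *Ins2* were marked because they passed the limits between the hairpins, with log2FC values of 1.82, 1.12 and 5.38. For *Stc2* and *Htra1* the mark repeats the test given above (adjusted *P* = 0.00117 and 2.47e-05, edgeR) and adds no support to it. *Ins2* passed the filter only through the *Lrp2* sh2 libraries, so its value is a description. That fitted value depends on the prior count, since the *Lrp2* sh1 libraries held 3, 0 and 2 counts.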

How the results depend on the processing

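Over the alternatives, 910 of 929 values of single genes stayed on the same side of the limits and 903 kept their sign, and no value past the limits changed sign. Counts below are in the order nSREBP2 versus GFP, *Lrp2* sh1, *Lrp2* sh2 versus ctrl sh, *Lrp2* sh2 versus *Lrp2* sh1, and GFP and ctrl sh versus uninjected. With an adjusted *P* under 0.05 alone, 7, 4, 7, 7, 2 and 3 of the 10 genes, 13, 1, 10, 21, 2 and 3 of the other IGF genes and 3770, 949, 3268, 4029, 442 and 1157 of all genes passed. With uninjected libraries in place of the controls, the counts of other IGF genes were 3 for nSREBP2 and 1 for *Lrp2* sh1, and those of all genes 1900, 1171 and 1466 for nSREBP2, *Lrp2* sh1 and *Lrp2* sh2. Without a filter on low counts, 1 other IGF gene passed for *Lrp2* sh1, and 554 and 687 of all genes for GFP and ctrl sh versus uninjected. One fit of all 18 libraries gave 534 and 746 there, and 404 for GFP with sex as a term. A minimum of 10 counts in every library gave 613 for *Lrp2* sh2 versus *Lrp2* sh1.

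Leaving out 1 library, the count among the 10 genes ranged from 1 to 3, 1 to 2, 3 to 4, 3 to 4, 0 to 1 and 0 to 2, that of the other IGF genes from 0 to 1 for *Lrp2* sh1 and for GFP versus uninjected, and that of all genes from 110 (without *Lrp2* sh1 replicate 3) to 221 for *Lrp2* sh1, 57 (without GFP replicate 2) to 362 for GFP and 79 (without ctrl sh replicate 2) to 423 for ctrl sh versus uninjected. For *Lrp2* sh2, *Stc2* missed only the adjusted *P* limit without its replicate 2 (log2FC 1.17) and with sex as a term (1.30). *Stc1* missed only that limit for GFP versus uninjected without uninjected replicate 2 (-1.38), uninjected replicate 3 (-1.25) or GFP replicate 2 (-1.28). The causes were not tested. In no comparison did the deviations of all 3 same-numbered pairs correlate by over 0.1, so the numbers were not taken to pair the libraries, and not every library correlated best with its own number. A replicate block gave 131 genes for ctrl sh versus uninjected, against 426 without it, and left the counts among the 10 genes as they were. Depth limits the genes with few counts, *Igfals*, *Ins2*, *Syt8*, *Stc2* and *Pappa* among them, and 3 libraries a group limit small differences.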
